A study of Mus musculus with 10 samples.

Results

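Surface molecules that lymphocytes can hold on to were followed in mesenchymal cells of the mouse Peyer's patch. The members were the genes listed under the names Madcam1, Vcam1, Icam1, Icam2, Cd44, Alcam, Ncam1, Jam2, Jam3 and Pvr, 10 of the 47643 genes in each deposited table. They were read in 10 RNA-seq libraries of cells sorted from C57BL/6 wild-type mice, all podoplanin-positive and all negative for CD45, EpCAM1, TER119 and CD31. The libraries fell into MCi, which lacked MAdCAM1 at the surface (n = 5), and MRC, which carried it (n = 5), and the comparison asks how the adhesion genes differ between these populations. Per the labels the groups differ in this surface marker, with no treatment named, and age and the number of mice behind a library are not stated in the sources used here. The p-values therefore measure the spread between these libraries, which may be technical.

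Lymphocytes enter and move through lymphoid tissue by binding ligands on stromal and endothelial cells. Integrin alpha4 beta7 binds MAdCAM-1, integrin alpha4 beta1 binds VCAM-1, and the integrin LFA-1 binds the ICAM molecules. Transcription of the genes for VCAM-1, ICAM-1 and MAdCAM-1 is known to respond to NF-kB, which is switched on in lymphoid stroma by lymphotoxin and tumour necrosis factor. The other members act through other partners: CD44 is a receptor for hyaluronan, ALCAM binds CD6 on T cells, NCAM-1 binds itself, JAM-B and JAM-C (from Jam2 and Jam3) bind each other and leukocyte integrins, and PVR binds the lymphocyte receptors CD226, TIGIT and CD96.

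The sequences before the transcription starts of Madcam1, the gene of the sort gate, and Icam1, the member with the highest level per length in both groups, show the letters in which these regulated ligands are written. They are the 250 bases upstream of the RefSeq start (GRCm38.p6, plus strand), Madcam1 at chr10:79664309-79664558 and Icam1 at chr9:21015690-21015939, and capitals mark the motif matches.
Madcam1: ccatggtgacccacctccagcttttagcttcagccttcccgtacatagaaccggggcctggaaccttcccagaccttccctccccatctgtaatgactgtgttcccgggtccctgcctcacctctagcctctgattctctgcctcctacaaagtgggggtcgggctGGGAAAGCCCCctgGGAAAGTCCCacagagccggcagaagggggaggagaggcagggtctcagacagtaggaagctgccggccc
Icam1: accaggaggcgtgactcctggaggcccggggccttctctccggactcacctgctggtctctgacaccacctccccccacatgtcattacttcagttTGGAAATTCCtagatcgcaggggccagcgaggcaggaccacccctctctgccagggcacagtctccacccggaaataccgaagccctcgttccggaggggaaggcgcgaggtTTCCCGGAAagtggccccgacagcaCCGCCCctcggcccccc
Motifs were searched on both strands, and shares refer to 32851 RefSeq windows of the same length. The NF-kB letters, GGG and 2 free bases followed by TTTCC or TTCCC, were found in 2.82% of windows. The Madcam1 window held them on the minus strand at bases -84 to -74 from the start, as a pair of overlapping matches, and again at -70 to -61. The Icam1 window held no match to those letters, but held TGGAAA followed directly by TTCC, the kB site described in the human gene ICAM1, at -154 to -145 (0.0761% of windows). It also held the STAT-type letters TTCNNNGAA at -42 to -34 (7.02% of windows) and a GC box, GGGCGG, on the minus strand at -17 to -12 (32.7% of windows). The letters TATAAA (12.4% of windows), TGANTCA (6.75%), GAAA and GAAA around 2 free bases (2.98%) and CAGGAAG (10.8%) were in neither of these windows. RefSeq entries were matched for 4 of the 10 members, which also include Cd44 and Alcam. A match is a description of letters and was not linked to expression here.

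Depth ran from 3941032 to 8738115 exon reads a library. On the CPM scale used here, 3 reads, the limit that a count of 0 allows, ran from 0.311 CPM in MCi5 to 0.777 CPM in MRC2. Replicates 4 and 5 of both groups were the deeper libraries (6142562 to 8738115 reads, against 3941032 to 4761017 in replicates 1 to 3), and the labels name no batch. Fibroblast transcripts were high in every library, for example Col3a1 at 12161 to 68328 CPM and Dcn at 5383 to 23339 CPM, as the mesenchymal gate asks. Epithelial transcripts were uneven. The summed CPM of 10 epithelial markers was 14.1 to 1266 over the MCi libraries and reached 10.7, 219, 2221, 15463 and 19384 in MRC 1 to 5, with Epcam at 909.7 and 861 CPM in MRC4 and MRC5. The enterocyte gene Fabp2 reached 8582 CPM and the keratin gene Krt8 reached 2773 CPM in these libraries. In the same MRC libraries the summed CPM of 8 fibroblast markers was 91674, 135005, 114564, 26630 and 26559. Results were therefore also computed without MRC4 and MRC5. In bulk samples such as these, fewer cells of a type and less RNA per cell cannot be told apart.

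Of the 8 members that could be tested besides Madcam1, 0 passed an adjusted p of 0.05 in edgeR's quasi-likelihood test over 12127 genes, in which 0.437% of genes passed (0.0742% higher in MRC and 0.363% higher in MCi). DESeq2, which called 7.12% of its genes, called Alcam and Jam2, both lower in MRC. An unadjusted edgeR p under 0.05 was found for 2 of the 8, the same pair, against 16.7% of all genes. The log2 fold changes of the 8, MRC minus MCi, ran from -1.76 to 0.32 with a median of -0.17, beside a median of 0.01 over all genes tested; 5 were below 0 and 3 above. Alcam was the single member whose MCi and MRC libraries did not overlap, compared with 3.79% of all genes. With the library set (replicates 1 to 3, or 4 and 5) as a covariate, again 0 of the 8 passed, while 1.7% of genes did (0.52% higher in MRC and 1.18% higher in MCi). Icam2 had too few reads to be tested.

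**Figure D1:**
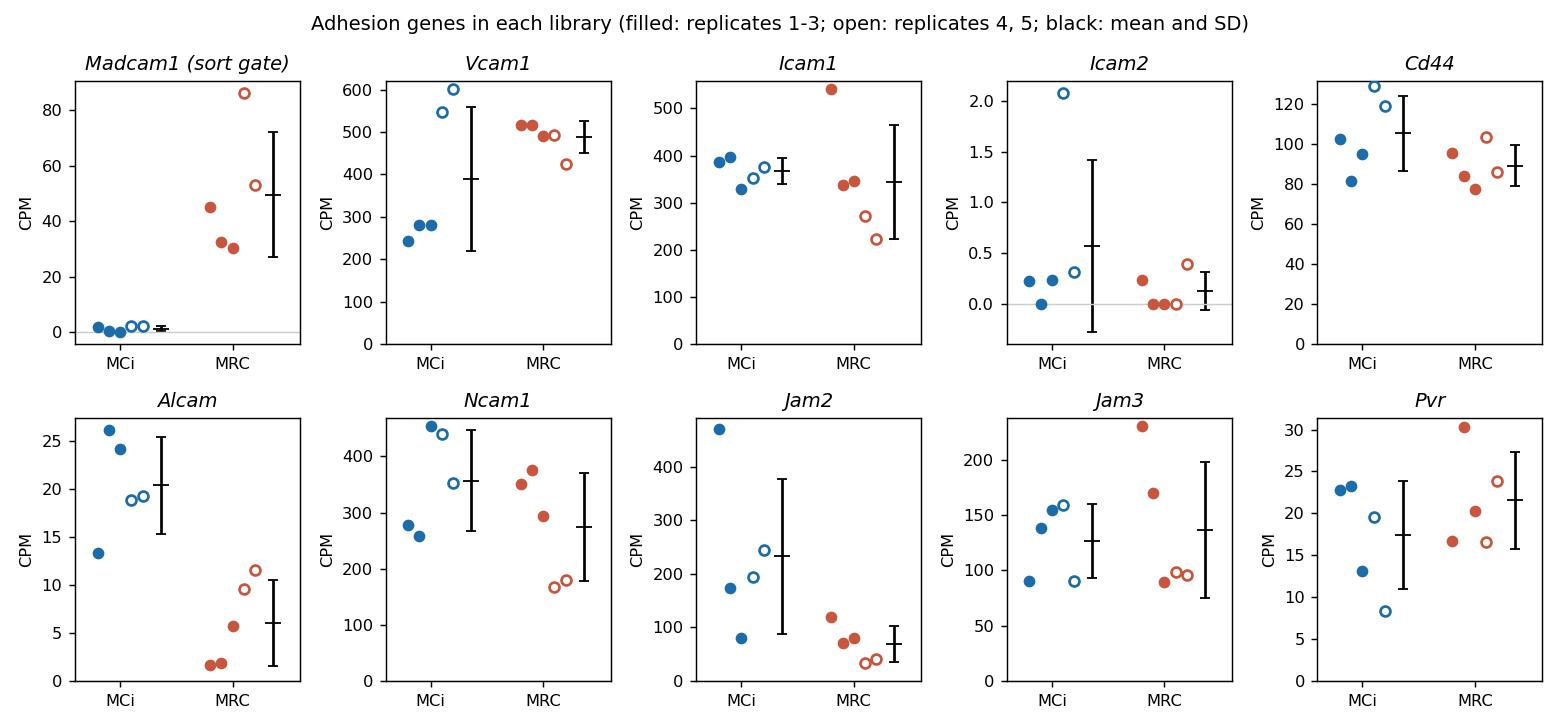
Normalised expression (CPM, linear axis) of each member in each library of MCi (blue) and MRC (red). Filled points are replicates 1 to 3, open points replicates 4 and 5, and black bars the mean and SD of 5 libraries; the MCi and MRC points of Alcam do not overlap, and Vcam1 in MCi splits between 242 to 281 CPM and 547 to 601 CPM.

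Madcam1, on chromosome 10 (GRCm38, 79664574 to 79668536), encodes the ligand of integrin alpha4 beta7 and is given as the reference of the sort. It was at 1.80, 0.443, 0, 2.08 and 2.38 CPM across MCi 1 to 5, and across MRC 1 to 5 it stood at 44.9, 32.6, 30.4, 86.1 and 53.0 CPM. Each MRC library was above each MCi library, in the direction of the gate, which sorts on surface protein and not on RNA. The value was not tested.

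Vcam1 (chromosome 3, 116109949 to 116129688, minus strand) encodes VCAM-1, the ligand of integrin alpha4 beta1 on lymphocytes. It was at 242, 281, 280, 547 and 601 CPM across MCi 1 to 5, and across MRC 1 to 5 it stood at 516, 516, 491, 493 and 426 CPM. MRC libraries lay close together, whereas MCi4 and MCi5 were above every MRC library and MCi1, MCi2 and MCi3 below all of them. Means were 390.3 ± 169.5 CPM in MCi and 488 ± 37.0 CPM in MRC (SD, n = 5 each), a log2 fold change of 0.32 ± 0.27 (SE; 95% interval -0.28 to 0.93; edgeR adjusted p = 0.610).

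The Vcam1 difference depended on the set of libraries, a division made after the data were seen. Among replicates 1 to 3 the mean was 268 CPM in MCi against 507 CPM in MRC (edgeR log2 fold change 0.92 ± 0.16, adjusted p = 0.0359; 0.801% of genes called, 0.236% as higher in MRC). Among replicates 4 and 5 it was 574 CPM in MCi against 459 CPM in MRC (edgeR log2 fold change -0.39 ± 0.18, adjusted p = 0.163; 26.2% of genes called). The log2 fold change was 1.24 ± 0.23 larger in replicates 1 to 3 than in 4 and 5 (edgeR interaction, adjusted p = 0.0128; 10.4% of all genes passed this test). Vcam1 was the only one of the 8 members to pass it, but the difference was of like size for Ncam1 (1.24 ± 0.36; edgeR interaction, adjusted p = 0.0522). MCi4 and MCi5 were also the MCi libraries with the highest mesothelial levels: Msln was at 232 and 218 CPM and Upk3b at 235 and 226 CPM there, against 3.35 to 41.0 and 5.03 to 34.0 CPM in MCi 1 to 3. The summed CPM of 6 mesothelial markers was 19.1 to 803 in MCi and 0.478 to 11.5 in MRC, and 2 of the 5 tested, Msln and Gpm6a, were called higher in MCi (edgeR adjusted p = 0.0315 and 0.0400). The part of these transcripts in the Vcam1 values was not tested.

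Icam1 (chromosome 9, 21015960 to 21028797) encodes ICAM-1, the ligand of LFA-1. It was at 386, 396, 329, 352 and 376 CPM across MCi 1 to 5, and across MRC 1 to 5 it stood at 542, 338, 346, 273 and 224 CPM. MCi libraries were tightly grouped, and MRC libraries lay above, within and below them. Means were 368 ± 27.5 CPM in MCi and 345 ± 121 CPM in MRC (SD, n = 5 each), with a log2 fold change of -0.09 ± 0.23 (95% interval -0.60 to 0.41; edgeR adjusted p = 0.887). MRC4 and MRC5, the libraries with the most epithelial transcripts, were the lowest, and without them the log2 fold change was 0.15 (edgeR adjusted p = 0.799). They were also the deeper MRC libraries, so that epithelial transcripts and library set cannot be told apart here, and the cause was not tested.

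Icam2 (chromosome 11, 106377656 to 106388075, minus strand) encodes ICAM-2, an LFA-1 ligand best known from endothelium. It had 20 reads over the MCi libraries, 15 of them in MCi4, and 3 reads over the MRC libraries. All libraries but MCi4, at 2.08 CPM, were under 0.4 CPM, and the difference in mean CPM did not pass a two-sided exact permutation test over libraries (p = 0.294; 0.00794 is the smallest p possible with 5 against 5). CD31-positive endothelium was gated out, and the CD31 gene, Pecam1, did not exceed 2.40 CPM. Of 13 endothelial markers 6 stayed under 3 CPM in every library, and the summed CPM was 43.2 to 80.2 in MCi and 32.3 to 76.2 in MRC. The highest of them were Tek, an angiopoietin receptor gene, at 1.42 to 60.1 CPM, and Esam, at 0.478 to 34.1 CPM.

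**Figure D2:**
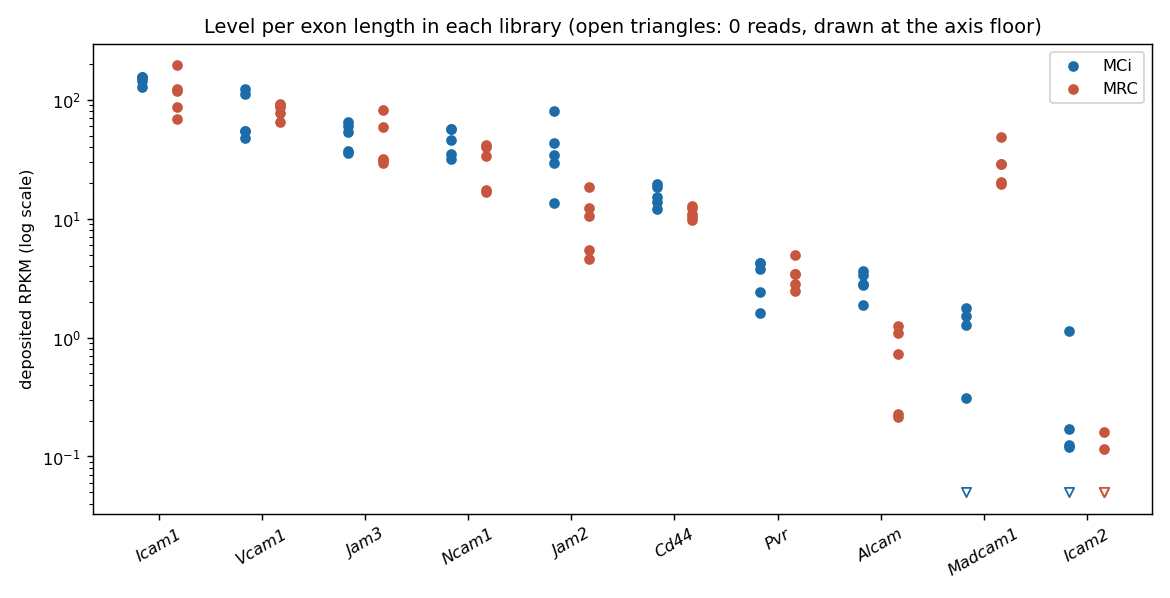
Level per exon length (deposited RPKM, log axis) of the members in each library, ordered by their mean in MCi, with MCi in blue and MRC in red. Icam1 and Vcam1 are at the top in both groups, Madcam1 moves with the sort gate, and open triangles mark libraries with 0 reads.

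Per exon length, the scale on which genes can be set side by side, the integrin ligands Icam1 and Vcam1 had the highest levels. In MCi the deposited RPKM averaged 147 ± 11.4 for Icam1 and 78.5 ± 36.0 for Vcam1 (SD, n = 5), and the ranges of these genes did not overlap. Jam3, Ncam1 and Jam2 followed at 50.6, 45.4 and 40.3 RPKM, with ranges that overlapped each other and, for Vcam1, the ranges of all of them. Cd44 averaged 15.9 RPKM and overlapped only the lowest Jam2 library. Pvr and Alcam, at 3.26 and 2.90 RPKM, overlapped each other and lay below every Cd44 value. In MRC the order began with Icam1 at 119 ± 48.6 and Vcam1 at 82.6 ± 11.3 RPKM, whose ranges overlapped. Within each library Icam1 was nevertheless above Vcam1. The ratio of Vcam1 to Icam1 was 0.312 to 0.797 in MCi and 0.473 to 0.947 in MRC, and was not tested. Madcam1 averaged 29.4 ± 11.9 RPKM in MRC, so that Vcam1 and Icam1 were each above Madcam1 in every MRC library. Madcam1 made up 8.42% to 22.9% of the summed RPKM of Madcam1, Vcam1 and Icam1 in MRC, a share that goes in the direction of the gate and is no finding.

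Alcam (chromosome 16, 52248996 to 52454074, minus strand) encodes ALCAM, the ligand of CD6 on T cells. It was at 13.3, 26.2, 24.2, 18.8 and 19.3 CPM across MCi 1 to 5, and across MRC 1 to 5 it stood at 1.67, 1.81, 5.68, 9.60 and 11.5 CPM. Every MCi library was above every MRC library, which held in this direction for 2.69% of all genes. Means were 20.3 ± 5.04 CPM in MCi and 6.06 ± 4.47 CPM in MRC (SD, n = 5 each), 3.36-fold higher in MCi, with a log2 fold change of -1.73 ± 0.51 (95% interval -2.84 to -0.61) that did not pass over all genes (edgeR adjusted p = 0.169; DESeq2 adjusted p = 0.0219).

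Within MRC, Alcam was highest where epithelial markers were highest, in MRC3, MRC4 and MRC5. The part of the epithelial transcripts in its level was not tested. Without MRC4 and MRC5 the log2 fold change was -2.71 ± 0.44 and passed (edgeR adjusted p = 0.0192; 1.03% of genes called in that fit, 0.379% higher in MRC and 0.653% higher in MCi). It was -2.76 among replicates 1 to 3 (edgeR adjusted p = 0.0498) and -0.92 among replicates 4 and 5 (edgeR adjusted p = 0.0924), a difference that itself did not pass (edgeR interaction, adjusted p = 0.107). Reads in introns made up 17.7% ± 13.0 of Alcam gene reads in MCi and 29.8% ± 16.5 in MRC, the highest shares among the members, with 51.2% in MRC4. That library also had the most intron reads over all genes, 10.8% of gene reads against 4.75% to 6.99% in the other libraries, and the part of this in the Alcam values was not tested. With intron reads counted too, its log2 fold change was -1.39 (edgeR adjusted p = 0.224).

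Jam2 (chromosome 16, 84774123 to 84825928) encodes JAM-B, an adhesion molecule of cell junctions. It was at 469, 173, 80.9, 194 and 244 CPM across MCi 1 to 5, and across MRC 1 to 5 it stood at 119, 69.9, 79.3, 33.1 and 41.5 CPM. MCi1 was far above the rest, and the groups overlapped through MCi3 and MRC1. Means were 232 ± 145 CPM in MCi and 68.6 ± 34.1 CPM in MRC (SD, n = 5 each), 3.39-fold higher in MCi (log2 fold change -1.76 ± 0.47, 95% interval -2.81 to -0.72; edgeR adjusted p = 0.145; DESeq2 adjusted p = 0.00690). MRC4 and MRC5 had the lowest values. Without both, the log2 fold change was -1.38 (edgeR adjusted p = 0.322), and among replicates 4 and 5 alone it was -2.63 (edgeR adjusted p = 0.000837), where 10.7% of all genes were called higher in MCi.

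Jam3 (chromosome 9, 27097385 to 27155421, minus strand) encodes JAM-C, the partner of JAM-B. It was at 90.8, 139, 155, 159 and 90.3 CPM across MCi 1 to 5, and across MRC 1 to 5 it stood at 230.3, 169.9, 89.3, 98.1 and 95.4 CPM. MRC1 was the highest and MRC3 the lowest library, with MCi spread between them. Means were 127 ± 33.8 CPM in MCi and 137 ± 61.8 CPM in MRC (SD, n = 5 each; log2 fold change 0.11 ± 0.31, 95% interval -0.56 to 0.78; edgeR adjusted p = 0.902). Per exon length, the ratio of Jam2 to Jam3 was 2.23, 0.539, 0.226, 0.528 and 1.17 for MCi 1 to 5, whereas MRC 1 to 5 gave 0.223, 0.178, 0.384, 0.146 and 0.188. Jam3 was thus above Jam2 in every MRC library and in 3 of 5 MCi libraries, and this ratio was not tested.

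Ncam1 (chromosome 9, 49502136 to 49798925, minus strand) encodes NCAM-1, an adhesion molecule of neural, muscle and some stromal cells. It was at 278, 258, 455, 440 and 353 CPM across MCi 1 to 5, and across MRC 1 to 5 it stood at 351, 376, 295, 167 and 180 CPM. The first 3 MRC libraries lay inside the MCi range, and MRC4 and MRC5 below it. Means were 357 ± 90.3 CPM in MCi and 274 ± 96.3 CPM in MRC (SD, n = 5 each; log2 fold change -0.38 ± 0.28, 95% interval -0.999 to 0.23; edgeR adjusted p = 0.538).

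Without MRC4 and MRC5, the log2 fold change of Ncam1 was -0.065 (edgeR adjusted p = 0.937). Among replicates 4 and 5 alone it was -1.26 (edgeR adjusted p = 0.00510), where 10.7% of all genes were called higher in MCi. The difference between the sets of libraries, 1.24 ± 0.36 in log2 and so near that of Vcam1, did not pass for Ncam1 (edgeR interaction, adjusted p = 0.0522). Enteric glia are known to express Ncam1. The summed CPM of 9 glial and neuronal markers was 149, 170, 376, 116 and 119 across MCi 1 to 5. Across MRC 1 to 5 this sum was 5.73, 85.5, 78.4, 23.5 and 9.93, although 0 of the 6 markers that were tested passed. Of these, the glial regulator Sox10 was at 26.2 to 85.4 CPM in MCi and 0 to 13.0 CPM in MRC. The part of glial transcripts in the Ncam1 values was not tested. Of Ncam1 exon reads, 61.6% ± 6.91 in MCi and 63.8% ± 3.45 in MRC crossed exon junctions, the highest share among the members tested.

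Cd44 (chromosome 2, 102811141 to 102901665, minus strand), the hyaluronan receptor gene, was at 103, 81.8, 95.003, 129 and 119 CPM across MCi 1 to 5, and across MRC 1 to 5 it stood at 95.3, 84.2, 77.5, 104 and 85.8 CPM. The groups overlapped widely, at 105 ± 18.8 and 89.3 ± 10.2 CPM (SD, n = 5 each). The log2 fold change was -0.24 ± 0.16, with the narrowest interval among the members (95% interval -0.59 to 0.11; edgeR adjusted p = 0.494). The tables count 9 annotated transcripts of Cd44 together, so that variant exons cannot be told apart from these counts.

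Pvr (chromosome 7, 19903578 to 19921160, minus strand), the nectin-like ligand of CD226 and TIGIT, was at 22.8, 23.3, 13.2, 19.5 and 8.29 CPM across MCi 1 to 5, and across MRC 1 to 5 it stood at 16.7, 30.3, 20.3, 16.5 and 23.8 CPM. MCi5 was the lowest and MRC2 the highest library, and the rest overlapped. Means were 17.4 ± 6.49 and 21.5 ± 5.74 CPM (SD, n = 5 each; log2 fold change 0.31 ± 0.31, 95% interval -0.37 to 0.99; edgeR adjusted p = 0.672). Its receptors on lymphocytes were hardly read in these CD45-negative cells: Cd226 had 0 reads in all libraries, Tigit had 1 read and Cd96 had 11.

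**Figure D3:**
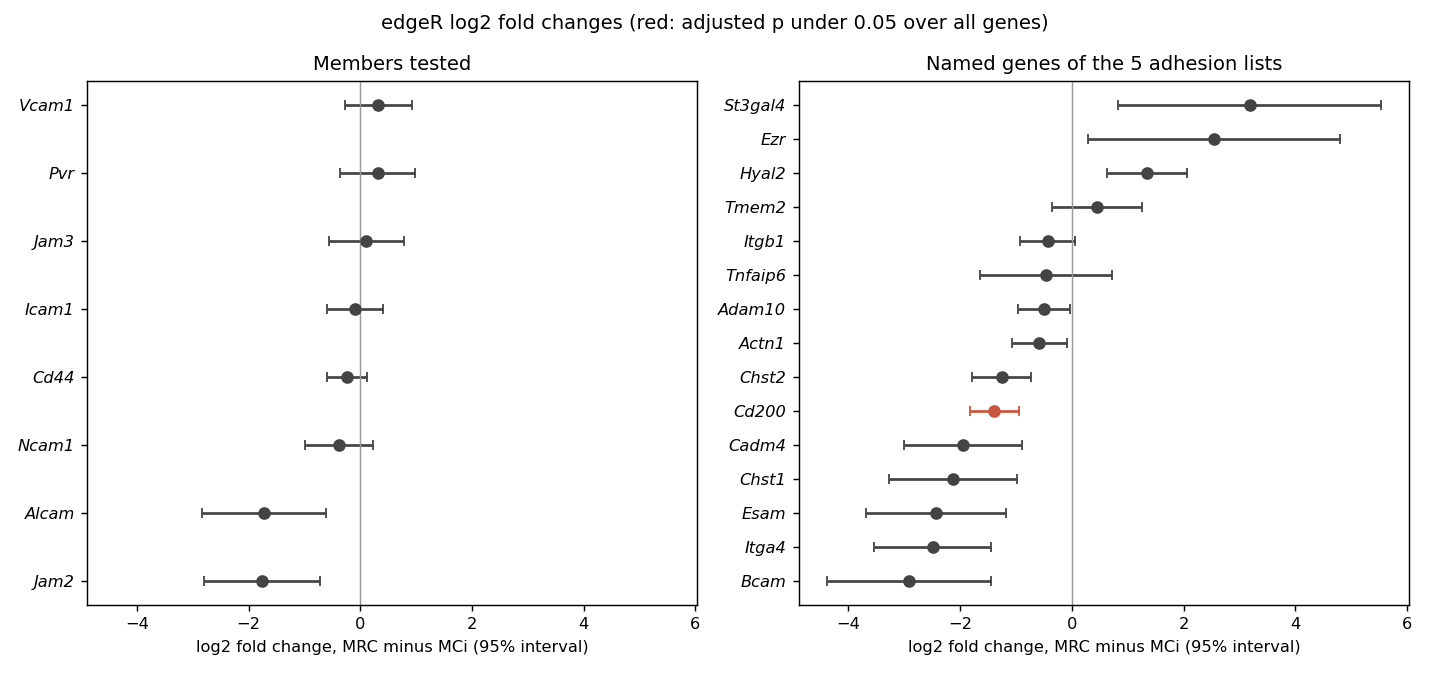
Log2 fold change (MRC minus MCi, 95% interval, edgeR, 5 against 5 libraries) of the 8 members tested (left) and of named genes of the 5 adhesion lists (right). Alcam and Jam2 sit at -1.73 and -1.76, the other members between -0.38 and 0.32, and Cd200, in red, is the gene with an adjusted p under 0.05.

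Around the members, other cell surface adhesion genes of the immunoglobulin superfamily included a gene that fell in MRC. Cd200, whose product restrains myeloid cells through the receptor CD200R, was at 100.02, 92.2, 112, 132 and 146 CPM across MCi 1 to 5, and across MRC 1 to 5 it stood at 49.9, 49.0, 52.9, 41.2 and 29.6 CPM. The groups did not overlap, as for 2.69% of all genes in this direction. Means were 116 ± 22.5 and 44.5 ± 9.38 CPM (SD, n = 5 each), 2.62-fold higher in MCi (edgeR log2 fold change -1.39 ± 0.20, adjusted p = 0.0157). It was 1 of 18 genes of the list that could be tested, of 25 listed; the other 17 did not pass, beside 0.437% of all genes that did. At an unadjusted p under 0.05 were 8 of the 18, beside 16.7% of all genes. The log2 fold changes of the list ran from -2.92 to 3.49, with 10 below 0 and 8 above, and their median was -0.06 beside 0.01 over all genes. The call of Cd200 ended without MCi1, MCi4 or MCi5 (edgeR adjusted p = 0.0509, 0.0601 and 0.0611), and with the replicate number as a block (0.0849), within 3.90e-07 to 0.0849 over 22 alternatives.

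The other genes of that list with the smallest p had lower means in MRC without passing. Bcam, a laminin receptor gene, was at 19.4, 23.7, 16.8, 143 and 120 CPM across MCi 1 to 5 and ranged from 6.21 to 11.8 CPM in MRC (edgeR log2 fold change -2.92 ± 0.66, adjusted p = 0.0974), its high MCi libraries being those with the most Msln. Esam, a junction gene related to the JAM family, averaged 26.5 ± 9.20 CPM in MCi against 4.90 ± 3.73 CPM in MRC (edgeR log2 fold change -2.43 ± 0.57, adjusted p = 0.101). Cadm4, a cell adhesion gene of the nectin-like family, averaged 10.1 ± 5.86 and 2.61 ± 1.33 CPM (edgeR log2 fold change -1.95 ± 0.48, adjusted p = 0.120). At the other end of the list Igsf5, which encodes the junction protein JAM4 and was named after its values were seen, averaged 2.23 ± 2.44 CPM in MCi against 25.5 ± 30.3 CPM in MRC (edgeR log2 fold change 3.49 ± 1.42, adjusted p = 0.261). In Bcam, Esam and Cadm4, which were named for their small p, the MCi and MRC libraries did not overlap, as for 2.69% of all genes in this direction. Beside them, 2 of 10 smooth muscle and pericyte markers, Acta2 and Kcnj8, were called higher in MCi (edgeR adjusted p = 0.0140 and 0.00483), and their summed CPM was 3070 to 5021 in MCi and 1185 to 2296 in MRC. Within that list Acta2 was at 1123 to 1779 CPM in MCi and 352 to 588 CPM in MRC, and Rgs5 at 319 to 824 and 269 to 750 CPM. The part of these cells in the values was not tested.

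Lymphocyte-side counter-receptors were scarce, with 10 of 12 genes below the filter and 0 of the 2 tested past the threshold. The exceptions were integrin genes that mesenchymal cells also use. Itga4, the alpha4 chain that pairs into the receptors of VCAM-1 and MAdCAM-1, was at 15.5, 11.97, 26.1, 13.0 and 14.6 CPM across MCi 1 to 5, and across MRC 1 to 5 it stood at 3.11, 4.14, 5.02, 1.42 and 0.795 CPM. Its groups did not overlap, as for 2.69% of all genes in this direction. The Itga4 mean was 5.61-fold higher in MCi (edgeR log2 fold change -2.49 ± 0.47, adjusted p = 0.0532, just outside the threshold). Over 22 alternatives, which include DESeq2 and other edgeR fits, its adjusted p ran from 2.77e-05 to 0.140. It passed in 0 of the 10 edgeR fits that left out a library. Itgb1, the beta1 chain, averaged 1318 ± 61.2 CPM in MCi against 975 ± 287 CPM in MRC (edgeR log2 fold change -0.44 ± 0.23, adjusted p = 0.366). Itgb7, which completes the MAdCAM-1 receptor, had 23 reads in MCi and 33 in MRC. The leukocyte markers Lyz2 and Coro1a were at 0.472 to 37.0 and 0.139 to 19.9 CPM over all libraries.

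Among 15 genes of selectins and of the sulphated sugars that selectins bind, 8 were tested and 0 passed (median log2 fold change 0.51, with 3 of 8 at an unadjusted p under 0.05, beside 16.7% of all genes). Chst2 and Chst1, sulfotransferase genes, averaged 42.6 ± 8.43 and 17.3 ± 7.01 CPM in MCi and 17.8 ± 5.43 and 3.91 ± 2.24 CPM in MRC. Both, named for their small p, were without overlap of the groups, as were 2.69% of all genes in this direction (log2 fold changes -1.26 and -2.13, edgeR adjusted p = 0.0534 and 0.114). St3gal4, a sialyltransferase gene, was at 18.4 to 94.0 CPM across MCi, and MRC 1 to 5 stood at 26.5, 45.3, 242, 874 and 1295 CPM (edgeR adjusted p = 0.210), high where Fabp2 and Epcam were high. The part of epithelial transcripts in the St3gal4 values was not tested. The endothelial selectin genes were near 0, with 10 reads of Sele and 2 of Selp in MCi and 0 and 11 in MRC.

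The hyaluronan and CD44 network had 7 of 17 genes tested and 0 past the threshold, with a median log2 fold change of -0.08 and 1 gene at an unadjusted p under 0.05, beside 16.7% of all genes. That gene was Hyal2, a hyaluronidase, at 12.2, 20.2, 11.97, 16.5 and 16.9 CPM across MCi 1 to 5, and across MRC 1 to 5 it stood at 33.9, 22.0, 24.2, 69.1 and 48.1 CPM. Every MRC library was above every MCi library (1.1% of all genes in this direction), yet it did not pass (edgeR log2 fold change 1.34 ± 0.33, adjusted p = 0.113). Tmem2, reported to encode a cell surface hyaluronidase, and Tnfaip6, which encodes a hyaluronan-binding protein, had overlapping groups (edgeR adjusted p = 0.586 and 0.725).

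Of 13 genes that anchor adhesion molecules to actin or shed them from the surface, 12 were tested and 0 passed, with 3 at an unadjusted p under 0.05, beside 16.7% of all genes, and a median log2 fold change of -0.16. Ezr, which encodes ezrin, the anchor of ICAM and CD44 tails, was at 26.6 to 118 CPM across MCi, and MRC 1 to 5 stood at 40.1, 32.9, 129.7, 938 and 1159 CPM (edgeR adjusted p = 0.256). Without MRC4 and MRC5, the libraries highest in epithelial transcripts, its log2 fold change went from 2.54 to -0.23. These were also the deeper MRC libraries, so that epithelial transcripts and library set cannot be told apart, and the cause was not tested. Adam10, a sheddase gene, averaged 122 ± 18.5 and 86.6 ± 21.6 CPM, and Actn1, an actin crosslinker gene, 53.6 ± 10.3 and 35.8 ± 10.2 CPM in MCi and MRC (edgeR adjusted p = 0.273 and 0.243).

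**Figure D4:**
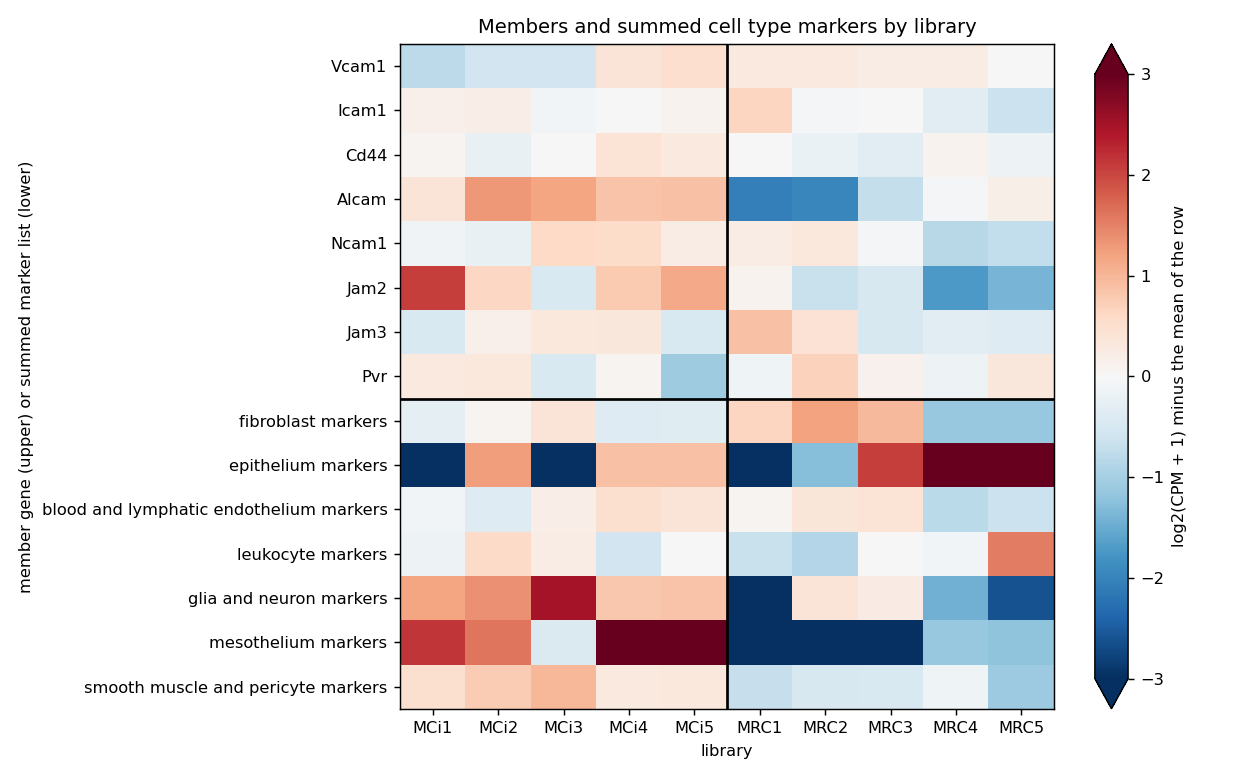
Members and summed cell type marker lists in each library, coloured by log2(CPM + 1) minus the mean of the row (red above, blue below; colours saturate at 3 in either direction). The epithelial sum is highest in MRC4 and MRC5, the mesothelial sum in MCi4 and MCi5, and Alcam lowest in MRC1 and MRC2.

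Reads of the members were nearly all unambiguous. Between 93.5% (Vcam1) and 100% (Madcam1, Icam2) of their exon reads were unique, and counting unique reads alone changed no call among them. The genes that overlap members in the tables were almost unread, the most being 20 reads of Gm11149 against 17112 of Ncam1. Intron reads made up 1.27% ± 0.344 of Vcam1 gene reads in MCi and 1.00% ± 0.775 in MRC, and 9.60% ± 3.65 and 7.72% ± 4.55 of those of Icam1 (SD, n = 5 each). For Vcam1 these shares became 8.18% and 7.47% where exon reads that were not unique were counted as intronic.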

How the data were processed

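Total RNA of sorted cells was extracted with a micro column kit and cDNA amplified with the SMART-Seq v4 kit, which does not mark strand, per the labels' protocols. Per the file headers, the deposited tables hold the authors' counts of total exon, unique exon, intron and gene reads and RPKM values; the RPKM values equal exon reads over exon length and total gene reads. The build is GRCm38 per the submitters' processing notes; the aligner is not given in the sources used here.

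Total exon reads were tested with edgeR 4.0.16 (R 4.3.3; filterByExpr, min.count 10, min.total.count 15; TMM; robust quasi-likelihood fit), MRC minus MCi, with Benjamini-Hochberg adjustment over 12127 genes and a threshold of 0.05. CPM is relative to the exon reads of those genes, scaled by TMM; intervals are 95%. Deposited RPKM values were used to compare genes, without a test. Intervals and floors cover counting error only where they rest on reads. On simulated counts for these 12127 genes 2-fold changes were recovered for 12% of the genes given them, 4-fold changes for 68.8% and 8-fold changes for 83.7%.

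Members, gene lists and cell type markers were chosen with earlier results of these data known. Named were all members; from each adhesion list the genes past the threshold and up to 3 more with the smallest p; and from each marker list up to 2 genes with the highest mean CPM, with Epcam and Pecam1; a gene that this rule names is not reported here. Gpm6a, Kcnj8, Igsf5 and the genes below the filter were named after their values were seen. Itgam was matched by identifier and 6 genes by an older symbol. Alternatives were DESeq2 1.42.0, its size factors in edgeR, other filters, the replicate block, leaving out each library or both MRC4 and MRC5, counting gene reads or unique exon reads, and a threshold of 0.01; the library sets were added after the data were seen.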

Additional observations from a re-analysis of the deposited data

Results flagged for a closer look

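Among 25 genes, each group of 5 libraries was examined for a library far from the others, and 4 of 50 groups held such a library; chance gives about 1 in 20. Vcam1 in MRC5, at 426 CPM, was below the other MRC libraries, which were at 491 to 516 CPM. Icam2 in MCi4, at 2.08 CPM and 15 reads, was above the other MCi libraries. Itga4 in MCi3, at 26.1 CPM, was above the other MCi libraries, and MCi3 also had the highest Sox10, at 85.4 CPM. Adam10 in MRC4, at 48.3 CPM, was below the other MRC libraries.

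The difference between MRC and MCi was not the same in replicates 1 to 3 as in replicates 4 and 5 for 3 of the 23 of these genes that could be tested, by edgeR's interaction term over 12127 genes, which 10.4% of all genes passed. For Vcam1 the log2 fold change was larger by 1.24 in replicates 1 to 3 (adjusted p = 0.0128). For Cd200 it was larger by 0.97 (adjusted p = 0.0428), with log2 fold changes of -0.998 in replicates 1 to 3 and -2.04 in replicates 4 and 5 when each set was fitted alone. For Bcam it was larger by 2.97 (adjusted p = 0.00659), with -1.12 and -4.16 in the sets fitted alone.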

How the results depend on the processing

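DESeq2 called 726 genes higher in MRC and 354 higher in MCi, 7.12% of its genes, where edgeR called 9 and 44, or 0.437%. Among the DESeq2 calls were 2 members higher in MCi and 4 genes of the immunoglobulin superfamily list. The others were 1 of the counter-receptors, 3 of the selectin list, 1 of the hyaluronan network and 1 of the anchors. With no filter on low counts, with at least 5 CPM in 5 libraries, and with gene reads, 1 counter-receptor and 1 selectin-list gene passed, and gene reads gave 14 genes higher in MRC. An adjusted p threshold of 0.01 left 2 genes higher in MRC, 10 higher in MCi and 0 of the immunoglobulin superfamily. Without both MRC4 and MRC5, 47 genes were higher in MRC and 81 in MCi, 1.03% of all genes in that fit. They included 1 member, higher in MCi, and 1 counter-receptor, and the member median was 0.045.

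Replicates 1 to 3 alone gave 28 genes higher in MRC and 67 in MCi, 0.801% of all genes in that fit. Of the 8 members tested there, 1 was called each way, and the member median was 0.096. Replicates 4 and 5 alone gave 2053 higher in MRC and 1407 in MCi, 26.2% of all genes in that fit. Beside this share, 2 of the 8 members tested were called, both higher in MCi. Genes called were 11, 2, 2, 1 and 4 of the immunoglobulin superfamily, counter-receptor, selectin, hyaluronan and anchor lists. With the library set as a covariate the counts were 63 and 143, 1.7% of all genes. They included 2 immunoglobulin superfamily genes and 1 gene each of the counter-receptors, selectins and hyaluronan network.

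Leaving out each library in turn gave 2 to 10 genes higher in MRC and 14 to 41 higher in MCi, 0 members in either direction, 0 to 1 immunoglobulin superfamily genes, 0 genes of the other lists and a member median of -0.297 to -0.098. In these fits Alcam was at -2.08 to -1.50 (edgeR adjusted p = 0.1001 to 0.356) and Jam2 at -2.06 to -1.31 (0.0695 to 0.332).

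The log2 fold change of Icam1 turned to 0.028 without MRC5 (range -0.32 to 0.028 over the fits without a library), 0.15 without both MRC4 and MRC5, and 0.14 in replicates 1 to 3. That of Vcam1 turned to -0.39 in replicates 4 and 5, that of Ncam1 to 0.047 in replicates 1 to 3, and that of Jam3 to -0.17 without MRC1 (range -0.17 to 0.23) and -0.43 in replicates 4 and 5. Ezr turned to -0.23 without both MRC4 and MRC5, and Tnfaip6 to 0.011 without MCi2 (range -0.80 to 0.011); the cause was not tested.

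With the replicate number as a block, 15 genes were higher in MRC and 0 of the immunoglobulin superfamily list passed. The labels do not say whether the numbers pair the samples. The deviations of same-numbered libraries correlated at 0.558, -0.254, 0.0624, 0.346 and 0.485 for replicates 1 to 5. Not every library correlated best with its own number. These correlations cannot decide whether samples were paired, because other differences between libraries also enter them. Depth limits Icam2, with 20 and 3 reads in MCi and MRC, and the other genes below the filter.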
